A study of Mus musculus with 6 samples.

Results

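The genes described are 10 of the p53 network of the mouse: the transcription factor gene Trp53, its regulators Mdm2 and Mdm4, and the target genes Cdkn1a, Ccng1, Sesn1, Zmat3, Trp53inp1, Btg2 and Rrm2b. They were taken by symbol from 57010 genes in the deposited table, of which 16909 had a count in at least 1 library. Poly(A)+ RNA of MLE-12, a wild type mouse lung epithelial line according to the labels, was sequenced in 6 libraries of the same labelled batch. In the group I/R, 3 biological replicates were kept in 1% oxygen for 12 h and then in normal oxygen for 4 h, which models ischaemia and reperfusion of the lung in culture. In the group I/R + Dex, 3 biological replicates received 10 µM dexmedetomidine, a sedative that activates alpha-2 adrenoceptors, for 12 h before the same hypoxia and reoxygenation. Both groups carried the hypoxia and reoxygenation, and cells without it were not analysed here. The title of the series places the study in ferroptosis, an iron-dependent cell death, and in signalling through β-catenin and TCF4.

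p53 is kept scarce in unstressed cells because MDM2, an E3 ubiquitin ligase, marks it for destruction, while the related MDM4 mainly blocks its activity. DNA damage and other stresses release p53, which then switches on genes of arrest and repair and also Mdm2 itself, a negative feedback loop. As background, p53 regulation happens largely at the protein level, so an mRNA level does not give p53 activity. MLE-12 was established from lung tumours of mice that carry a viral large T antigen under the surfactant protein C promoter, and large T antigen binds p53. Neither p53 protein nor the large T antigen was analysed here.

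Total counts per library ran from 2333546 to 2941989, so that a count of 0 left room for up to 1.02 to 1.29 CPM (counts scaled to a common library total), taking 3 counts as the floor for counting error. Of 7412 genes with enough counts to be tested by edgeR's quasi-likelihood test, 5 passed the adjusted threshold of 0.05. Of these, 3 were higher with dexmedetomidine and 2 were lower. The labelled cell type was little borne out by its markers. Of 12 epithelial markers, 7 had 0 counts in all libraries, Krt8 and Krt18 among them, and the list summed to 1.91 to 2.74 CPM under I/R and at most 2.30 CPM under I/R + Dex. Of 11 markers of alveolar type II cells, 6 had 0 counts, including the surfactant genes Sftpa1, Sftpb, Sftpc and Sftpd. That list summed to 8.55 to 22.7 CPM under I/R and 6.10 to 22.3 CPM under I/R + Dex, mostly Abca3. Of the 10 fibroblast markers none was at 0 in all libraries, but Lum had 2 counts and Pdgfrb 4 in sum. They summed to 518 to 598 CPM under I/R and 495 to 653 CPM under I/R + Dex, and Vim alone had a mean of 490 CPM. Alveolar type I markers summed to 198 to 246 and 214 to 290 CPM, mostly Cav1, and 3 of 6 had 0 counts. Leukocyte markers summed to 21.1 to 27.3 and 26.8 to 34.5 CPM, and endothelial markers to 1.53 to 6.06 and 6.59 to 12.2 CPM. Whether this bears on the p53 genes was not tested.

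The Mdm2 RNA was spread over several transcripts, and a library of the group I/R stood out in which one of them prevailed. Exon 8 of the 12 exons of Mdm2-202, a coding transcript, is absent from Mdm2-209. The annotation marks Mdm2-209 for nonsense-mediated decay, a pathway that degrades mRNAs with an early stop codon. The exon holds 97 coding bases, which leaves a remainder of 1 when divided by 3. Its sequence is shown in capitals with 30 bases on either side, followed by the junction of Mdm2-209, where capitals mark the bases next to the join. Both come from GENCODE vM21 transcripts of chromosome 10, minus strand.
Mdm2-202, exon 8: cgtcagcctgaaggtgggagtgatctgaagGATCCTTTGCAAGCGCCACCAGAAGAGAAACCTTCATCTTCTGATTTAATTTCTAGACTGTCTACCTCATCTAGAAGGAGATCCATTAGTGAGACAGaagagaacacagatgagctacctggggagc
Mdm2-209, junction: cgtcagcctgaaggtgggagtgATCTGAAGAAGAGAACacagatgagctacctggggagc
The annotated coding sequence of Mdm2-202 has 1320 bases, and that of Mdm2-209 has 486 and ends shortly past the join. The transcripts also differ at their 5′ ends, and the coding sequence is annotated from base 488 of Mdm2-202 and from base 82 of Mdm2-209. More coding bases lie before the join in Mdm2-209 than before exon 8 in Mdm2-202.

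Trp53inp1 offers a comparable pair. A 38-base exon, the exon 4 of 5 in Trp53inp1-202, is absent from the coding transcript Trp53inp1-201. It is shown in capitals, followed by the join that replaces it, both from GENCODE vM21 transcripts of chromosome 4, plus strand.
Trp53inp1-202, exon 4: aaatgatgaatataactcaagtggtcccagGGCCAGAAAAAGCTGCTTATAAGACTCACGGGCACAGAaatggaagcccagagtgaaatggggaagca
Trp53inp1-201, junction: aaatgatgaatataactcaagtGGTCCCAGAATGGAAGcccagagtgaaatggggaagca
The coding sequence of Trp53inp1-201 has 717 bases and spans this join, whereas the annotation defines no coding sequence for Trp53inp1-202.

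None of the 10 genes passed the test between the groups. Of the 7 with enough counts, 0 had an adjusted p under 0.05 with edgeR's quasi-likelihood test, against 0.0675% of all genes tested (0.0405% higher and 0.027% lower), and 0 had an unadjusted p under 0.05, against 3.39% of all genes. DESeq2 and limma voom also called 0 of them, where these tools called 0.114% and 0.0135% of all genes. As log2 fold changes, positive where the level was higher with dexmedetomidine, the values ran from -0.24 for Mdm2 to 0.47 for Btg2 with a median of 0.21, while the median over all genes was -0.01. They were above 0 for 5 genes and below 0 for 2, and 48.9% of all genes were above 0. In 0 of the 10 genes did the CPM of the groups fail to overlap, which was so for 9.12% of all genes tested. Cdkn1a, Sesn1 and Rrm2b had too few counts for the test. In such bulk libraries, fewer cells that express a gene and less of its RNA per cell cannot be told apart.

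**Figure D1:**
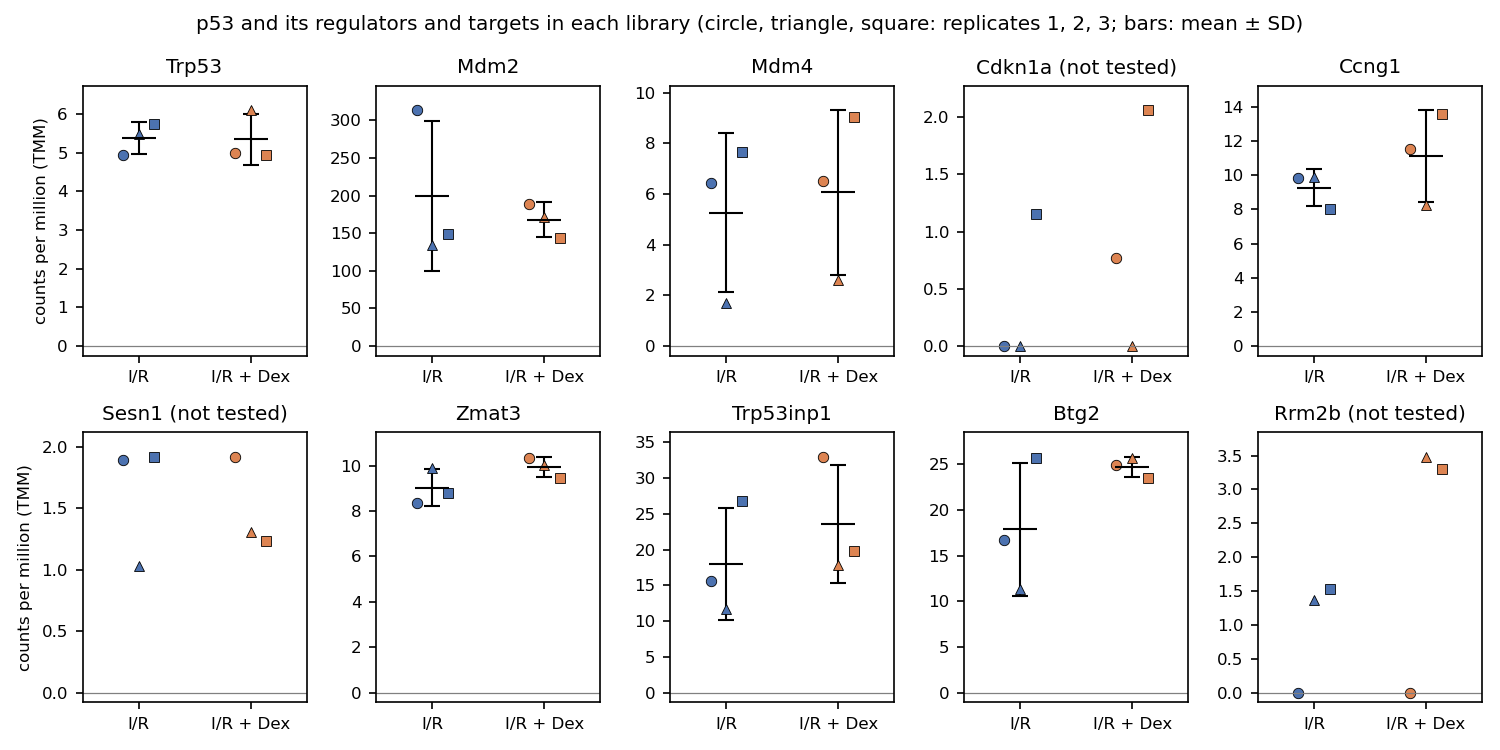
CPM after TMM scaling (vertical axes, each from 0) of the 10 genes in the 3 libraries of I/R (blue) and of I/R + Dex (orange). Circles, triangles and squares are replicates 1, 2 and 3, and bars give mean ± SD for the 7 genes tested. Points of the groups overlap in every panel, and Mdm2 in I/R replicate 1 stands above the other 5 libraries.

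The levels per transcript length, in FPKM (fragments scaled to length and library total), differed far more between the genes than between the groups. Mdm2 was highest with a mean of 36.1 FPKM over the 6 libraries, ahead of Btg2 at 7.77, and its lowest library, at 26.4, was above the highest of Btg2, at 9.36. Trp53inp1 at 3.21 and Ccng1 at 2.91 FPKM did not separate, since the first was higher in 3 of 6 libraries. The range of Trp53inp1 overlapped that of Btg2, although Btg2 was higher within each of the 6 libraries. Trp53 followed at 1.33 FPKM and Zmat3 at 0.830, each without overlap with its neighbours in the order. At the lower end, Sesn1 at 0.389, Mdm4 at 0.384, Cdkn1a at 0.188 and Rrm2b at 0.177 FPKM each overlapped the next. Within each of the 6 libraries, however, Mdm4 was above Cdkn1a. For comparison, the median of genes with any FPKM was 0.831 and that of genes tested was 8.44, so Mdm2 alone among the 10 lay above the latter. Mdm2 held 70.7% of the 4021 counts of all 10 genes.

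Trp53 (chr11:69471185-69482699, plus strand, in the authors' table, for which the processing notes name GRCm39) encodes p53 itself. It had 13, 16 and 15 counts under I/R against 13, 14 and 12 under I/R + Dex. The 6 libraries were alike, at 5.38 ± 0.417 and 5.34 ± 0.653 CPM (SD, n = 3 each). The log2 fold change was -0.01 with a 95% interval of -0.99 to 0.96 (edgeR adjusted p = 1.00), so that a fall or a rise of nearly 1 on this scale lay within it. Its few counts were scattered over transcripts. Trp53-206 had 28 counts over all libraries, Trp53-201 had 27, Trp53-203 had 14, of which 12 in I/R + Dex 3, and the non-coding Trp53-204 had 11. The pseudogene Trp53-ps, with 94.9% identity, had 2 counts, both in I/R replicate 1. The relatives Trp63 and Trp73 had 0 counts in all libraries.

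Mdm2 (chr10:117524780-117546663, minus strand) encodes the ligase that degrades p53 and is one of its targets. Counts were 827, 392 and 390 under I/R against 492, 395 and 347 under I/R + Dex. I/R replicate 1 was the highest and the other 5 libraries lay close together. In CPM this library stood 2.098 times above the median of the others, as high a ratio as in 2.61% of the 3902 genes with a mean of at least 30 CPM. The group levels stood at 199 ± 99.4 against 168 ± 23.2 CPM, and the log2 fold change was -0.24 with a 95% interval of -1.05 to 0.56 (edgeR adjusted p = 1.00).

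The excess in I/R replicate 1 was on Mdm2-209. This transcript had 631 counts there, 76.3% of the gene's counts in that library (Wilson 95% interval 73.3% to 79.1%), and 0 in each of the other 5. A count of 0 left room for a share of 0.610% to 0.865% in those. With Mdm2-209 left out, a step chosen after its counts were seen, I/R replicate 1 had 196 counts and was the lowest library instead of the highest. The log2 fold change then turned to 0.49 with an interval of -0.13 to 1.12 (edgeR unadjusted p = 0.102, adjusted p = 1.00). Leaving out I/R replicate 1 turned it to 0.25 (edgeR unadjusted p = 0.139, adjusted p = 0.998). The direction for Mdm2 thus rested on 1 transcript in 1 library. Transcripts with at least 600 counts in 1 library and 0 in the others numbered 18 in the whole table, 2 of them in I/R replicate 1, and at the lower bar of 100 counts there were 237, with 27 to 52 per library.

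**Figure D2:**
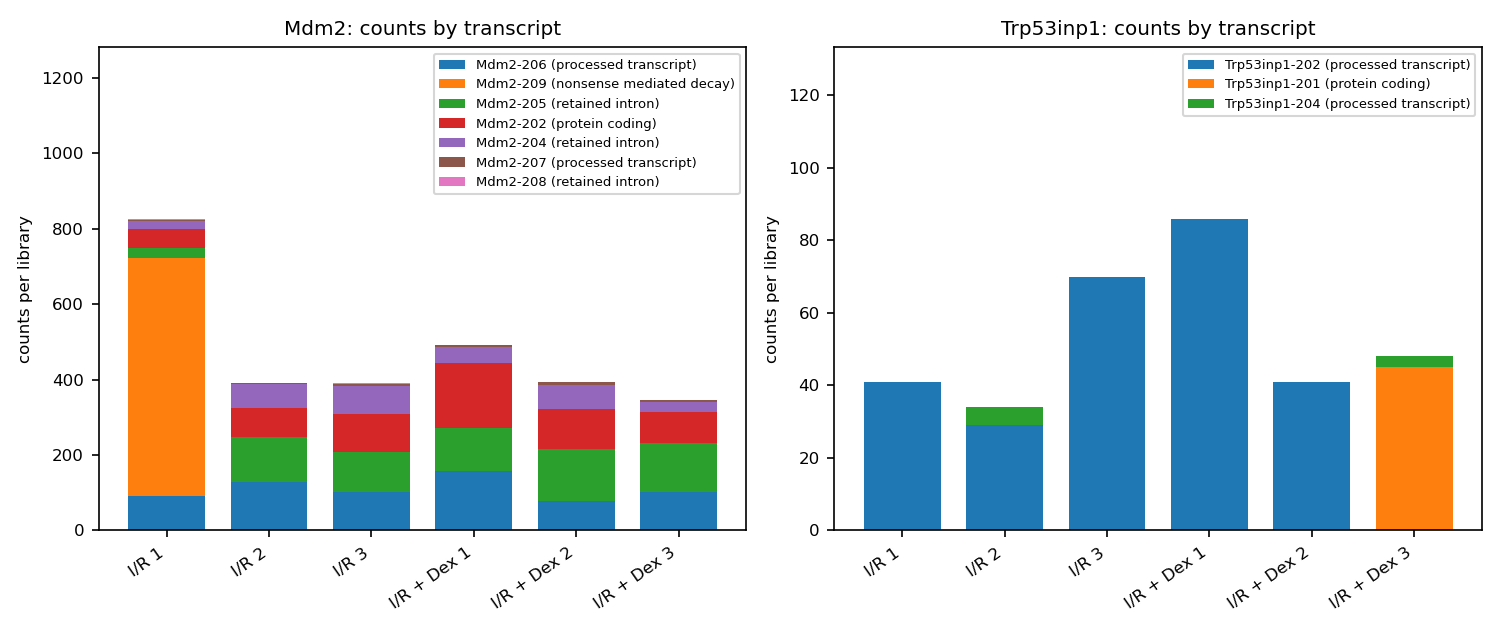
Deposited counts (vertical axes) of each counted transcript of Mdm2 (left) and Trp53inp1 (right), stacked by library, with the transcript's annotated type in the key. Mdm2-209 appears in I/R replicate 1 alone, with 631 counts, and Trp53inp1-201 in I/R + Dex replicate 3 alone, with 45.

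Coding transcripts were a minor part of Mdm2. Of these, Mdm2-201 had 0 counts in all libraries. Mdm2-202 had 52, 78 and 101 counts under I/R against 170, 105 and 82 under I/R + Dex. The highest were in I/R + Dex, but the groups overlapped, at 28.4 ± 9.53 against 48.2 ± 16.2 CPM (log2 fold change 0.77, 95% interval -0.18 to 1.71, edgeR unadjusted p = 0.0927, adjusted p = 1.00). It made up 6.29%, 19.9% and 25.9% of the Mdm2 counts under I/R against 34.6%, 26.6% and 23.6% under I/R + Dex, or 20.7% over all libraries. The Wilson 95% intervals were 4.83% to 8.15%, 16.2% to 24.1% and 21.8% to 30.5% for the 3 libraries of I/R. For those of I/R + Dex they were 30.5% to 38.9%, 22.5% to 31.1% and 19.5% to 28.4%, so that the groups overlapped. With Mdm2-209 left out of the total, the share in I/R replicate 1 was 26.5% (Wilson 95% interval 20.8% to 33.1%), within the range of the other 5 libraries. Over 3444 protein-coding genes with a mean of at least 30 CPM the median share of coding transcripts was 98.8%. Of these genes, 5.34% had a share as low as the 20.7% of Mdm2, a value with Mdm2-209 in its total.

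The rest of Mdm2 lay on transcripts without a defined coding sequence or with a retained intron, a segment left unspliced. The retained-intron transcript Mdm2-205 had 26, 119 and 106 counts under I/R against 114, 137 and 128 under I/R + Dex. In CPM all 3 libraries of I/R + Dex were above those of I/R, and the log2 fold change was 0.78 (95% interval -0.64 to 2.19, edgeR unadjusted p = 0.222, adjusted p = 1.00). Among all transcripts tested, 9.68% were apart in this way. Mdm2-206, without a defined coding sequence, had 91, 128 and 103 counts under I/R against 159, 79 and 103 under I/R + Dex, with overlapping groups. Mdm2-204, also with a retained intron, had 20, 64 and 74 counts and 44, 65 and 28. Mdm2-207 summed to 27 counts and Mdm2-208 to 9.

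By the likeness of log2 CPM over the 6 libraries, the genes nearest to Mdm2 among 3898 were Zcchc14 (Pearson r 0.995), Gm2296 (0.977) and Wdr45b (0.975). All 3 were highest in I/R replicate 1, Gm2296 at 138 CPM against 39.7 to 74.5 CPM in the others. The correlation is a description over libraries of which 1 stands out.

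Mdm4 (chr1:132913958-132953154, minus strand) encodes the partner of MDM2 that masks the activation domain of p53. It had 17, 5 and 20 counts under I/R against 17, 6 and 22 under I/R + Dex. The second replicate was the lowest of each group and the groups covered the same range. Levels were 5.27 ± 3.14 and 6.07 ± 3.25 CPM (log2 fold change 0.21) with the widest interval of the 7, -1.43 to 1.85 (edgeR adjusted p = 1.00). The value turned to -0.21 without I/R replicate 2 and to -0.19 without I/R + Dex replicate 3. Mdm4-210, a coding transcript, held 78 of its 87 counts, and the pseudogene Mdm4-ps had 1 count.

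Cdkn1a encodes p21, an inhibitor of cyclin-dependent kinases and the classical arrest target of p53. It was barely counted, with 0, 0 and 3 counts under I/R against 2, 0 and 5 under I/R + Dex, 10 in all. It had no count in 3 libraries, and the other 3 lay at or near the floor, so that no fold change is given. The authors' table does not list it, and it was found by its identifier in a reference table of names. Its counts fell on 3 coding transcripts with 5, 4 and 1.

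Sesn1 (chr10:41685931-41784420, plus strand) encodes a sestrin, a stress protein that restrains mTORC1 signalling. It too was barely counted, with 5, 3 and 5 counts under I/R against 5, 3 and 3 under I/R + Dex. Rrm2b (chr15:37924196-37961347, minus strand) encodes a p53-inducible subunit of ribonucleotide reductase that supplies nucleotides for repair. It had 0, 4 and 4 counts under I/R against 0, 8 and 8 under I/R + Dex, and the first replicate of each group was at 0. Without a filter on low counts the log2 fold change was -0.10 for Sesn1 (95% interval -2.80 to 2.60) and 1.18 for Rrm2b (-1.95 to 4.31), which leaves either direction possible. The processed pseudogene Gm8616, with 97.0% identity to Rrm2b, had 12 counts, 33.3% of the counts of both, so that reads of this pair may have been split uncertainly.

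Ccng1 (chr11:40639379-40646138, minus strand) encodes cyclin G1, which takes part in the feedback on MDM2. It had 26, 29 and 21 counts under I/R against 30, 19 and 33 under I/R + Dex, with the highest library in I/R + Dex and overlapping groups. Levels were 9.27 ± 1.06 and 11.1 ± 2.68 CPM, a log2 fold change of 0.26 (95% interval -0.51 to 1.03, edgeR adjusted p = 1.00). Zmat3 (chr3:32388941-32419827, minus strand) encodes a zinc finger RNA-binding protein. Its counts were 22, 29 and 23 under I/R against 27, 23 and 23 under I/R + Dex, close together in all libraries. At 9.02 ± 0.812 and 9.95 ± 0.446 CPM its log2 fold change was 0.14 (95% interval -0.56 to 0.84, edgeR adjusted p = 1.00). Each of the 2 had all counts on 1 coding transcript.

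Trp53inp1 (chr4:11156441-11174379, plus strand) encodes a nuclear stress protein that promotes p53 activity and autophagy. It had 41, 34 and 70 counts under I/R against 86, 41 and 48 under I/R + Dex. The highest library was I/R + Dex replicate 1 and the next was I/R replicate 3, so the groups overlapped at 18.0 ± 7.89 and 23.5 ± 8.24 CPM. The log2 fold change was 0.39 (95% interval -0.53 to 1.31, edgeR adjusted p = 1.00). It was 0.07 without I/R + Dex replicate 1 and 0.79 without I/R replicate 3. The transcript that held the counts was another one in 1 library. Trp53inp1-202, the transcript with the 38-base exon shown above, had 41, 29 and 70 counts under I/R against 86, 41 and 0 under I/R + Dex. Trp53inp1-201, the coding transcript without it, had 45 counts in I/R + Dex replicate 3, or 93.8% of the gene there (Wilson 95% interval 83.2% to 97.9%), and 0 in the other 5 libraries. A count of 0 left room for 3.49% to 8.82% in those. The log2 fold change of Trp53inp1-202 alone was -0.04 with an interval of -3.67 to 3.60.

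Btg2 (chr1:134002908-134006858, minus strand) encodes an antiproliferative protein that takes part in mRNA deadenylation. It had 44, 33 and 67 counts under I/R against 65, 59 and 57 under I/R + Dex, all on 1 coding transcript. The lowest libraries were I/R replicates 1 and 2, while I/R replicate 3, at 25.7 CPM, lay within the range of I/R + Dex. Levels were 17.9 ± 7.26 and 24.7 ± 1.12 CPM, so the spread was wider in I/R. The log2 fold change of 0.47 was the highest of the 7 (95% interval -0.28 to 1.22, edgeR unadjusted p = 0.184, adjusted p = 1.00). It was 0.82 without I/R replicate 3 (edgeR unadjusted p = 0.0260, adjusted p = 0.997) and 0.22 without I/R replicate 2.

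**Figure D3:**
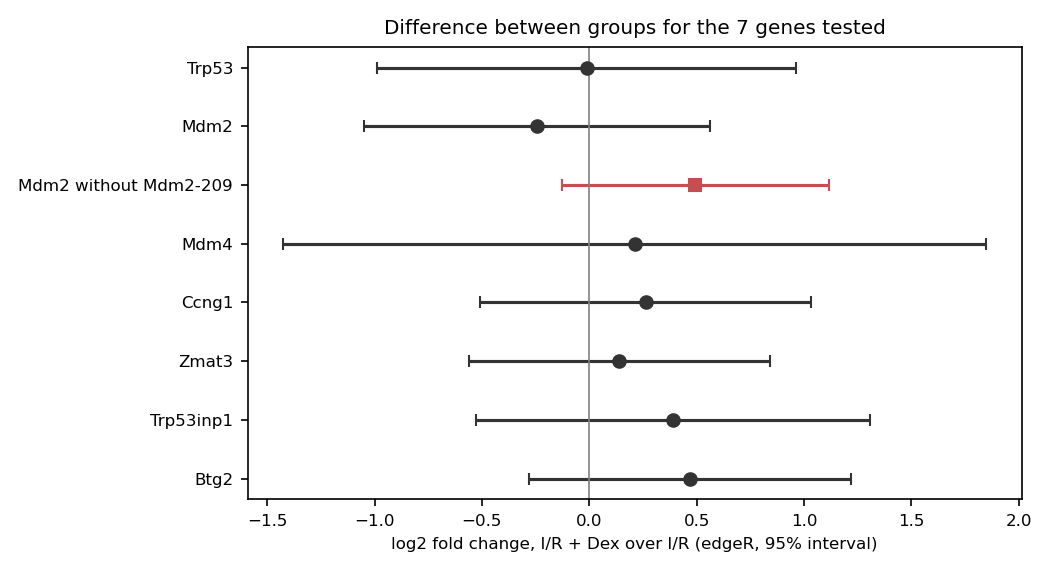
Log2 fold change, I/R + Dex relative to I/R (horizontal axis) of the 7 genes tested, with 95% intervals from edgeR's quasi-likelihood fit. All intervals include 0, and the square shows Mdm2 without the transcript Mdm2-209, at 0.49 in place of -0.24.

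Across their transcripts, the 10 genes had 57 annotated or counted forms, of which 30 had a count, 18 had at least 10 counts and 9 could be tested. Of those 9, 0 passed an adjusted p of 0.05 with edgeR and 0 with DESeq2, and 0 had an unadjusted p under 0.05, against 0%, 0.572% and 2.92% of all transcripts. The authors' deposited table lists 16 transcripts of these genes, marks 0 of them as significant, and marks 0.577% of its 18021 transcripts. In the authors' deposited table the smallest p for them is 0.0986, for Mdm2-202, whose log2 fold change there is 0.76. For all 10, the transcript counts added up to the gene count.

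The promoters were searched for the p53 half-site consensus, a 10-base motif read on both strands that is its own reverse complement, as a property that counts did not enter. RefSeq promoters (GRCm38.p6, from 250 bases before to 50 after the start) were found for 7 of the 10 genes by symbol. Of these, 5 held a match, where 9.55% of 27025 genes in the table did. The genes were listed as belonging to the p53 network, so this is a description and not a test. Sequence outside this window was not searched, and binding of p53 to a matched half-site was not tested. The matches are shown in capitals within 40 bases, on the strand of the gene.
Sesn1, chr10:41887251-41887290, plus strand: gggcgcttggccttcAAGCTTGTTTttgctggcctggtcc
Mdm2, chr10:117710920-117710959, minus strand: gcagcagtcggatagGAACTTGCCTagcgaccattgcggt
Ccng1, chr11:40755447-40755486, minus strand: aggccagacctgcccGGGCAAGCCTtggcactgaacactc
Trp53, chr11:69580269-69580308, plus strand: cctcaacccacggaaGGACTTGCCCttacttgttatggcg
Cdkn1a, chr17:29090891-29090930, plus strand: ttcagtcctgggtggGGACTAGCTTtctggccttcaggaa
Cdkn1a, chr17:29090913-29090952, plus strand: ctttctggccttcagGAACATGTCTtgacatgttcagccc
They lie 173 bases before the start of the promoter that holds them for Sesn1, 186 for Mdm2, 185 for Ccng1, 75 for Trp53, and 73 and 51 for Cdkn1a. Sesn1 and Cdkn1a each also had another promoter, at another start, without a match. Mdm4 and Btg2 had a promoter in the table without these letters. Genes with a match include both the highest level of the 10, Mdm2, and a barely counted gene, Cdkn1a.

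Around these genes, 200 others of the p53 network in 9 lists were read from the same fit. Of these, 121 had enough counts, 0 passed the test, 8 or 6.61% had an unadjusted p under 0.05 against 3.39% of all genes, and 12 or 9.92% had groups apart, against 9.12%. Their median log2 fold change was -0.01. DESeq2 and limma voom called 0 of them as well.

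Of 20 damage kinases and sensors upstream of p53, 10 were tested and 0 passed. Prkdc, the catalytic subunit of DNA-dependent protein kinase, stood at 44.2 ± 17.1 CPM under I/R and 67.4 ± 7.90 under I/R + Dex (log2 fold change 0.61, edgeR adjusted p = 1.00). Xrcc5, a Ku subunit of the same complex, stood at 3.92 ± 2.85 and 9.38 ± 2.13 CPM (1.24, edgeR adjusted p = 1.00). Of 39 entries for other regulators of p53 and MDM2, 33 were tested and 0 passed. The nucleolar genes Nop53 and Npm1 had the lowest p there, with log2 fold changes of 0.74 and 0.21, and 52.7% of the counts of Npm1 and its near-identical copies were on the copies.

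Of 49 other targets of arrest, repair and metabolism, 23 were tested and 0 passed, with a median of -0.07. Pcna, the replication clamp, had a log2 fold change of 0.49, but 80.6% of the counts of Pcna and its pseudogene were on the pseudogene, and with both added it was 0.17. Of 22 cell death targets, 6 were tested and 0 passed. Ppp1r13b, a p53-binding cofactor, stood at 23.3 ± 3.16 and 33.6 ± 2.50 CPM (0.53), and Dram1, an autophagy gene, at 7.45 ± 0.554 and 5.39 ± 1.57 CPM (-0.47).

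The list of p53-linked ferroptosis genes had 10 entries, of which 4 were tested and 0 passed. Slc7a11, the cystine transporter subunit that p53 is known to repress, had 249, 327 and 279 counts under I/R against 256, 230 and 302 under I/R + Dex. The groups overlapped at 104 ± 9.01 against 108 ± 14.6 CPM (log2 fold change 0.04), and the 95% interval was -0.28 to 0.36 (edgeR adjusted p = 1.00). Sat1, a polyamine-catabolic enzyme and p53 target, had 1348, 1193 and 1122 counts under I/R against 729, 860 and 675 under I/R + Dex. All 3 libraries of I/R + Dex lay below those of I/R, at 450 ± 54.2 and 311 ± 55.2 CPM, where 9.12% of all genes tested had groups apart. The difference in Sat1 did not pass (log2 fold change -0.53, 95% interval -0.87 to -0.19, edgeR unadjusted p = 0.00764, adjusted p = 1.00). Vkorc1l1, a vitamin K reductase, was at 0.90, and at -0.08 once the counts of its pseudogenes, 70.4% of the total, were added.

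The genes downstream of p21 gave no call either. Of 22 CIP/KIP inhibitors, G1 cyclins, kinases and members of the RB and DREAM complexes, 17 were tested and 0 passed, with a median of 0.04. Rbbp4, a DREAM subunit, stood at 438 ± 17.1 and 390 ± 18.1 CPM (log2 fold change -0.17), and E2f5, a repressive E2F factor, at 10.8 ± 2.32 and 15.7 ± 1.63 CPM (0.53). Of 30 cell cycle genes repressed through p21 and DREAM, 20 were tested and 0 passed, 10 above 0 and 10 below, with a median of 0.01. The lowest p values were those of Ccna2, cyclin A2, at 130 ± 3.85 and 101 ± 10.4 CPM (-0.37), and of Cdc20, an activator of the anaphase-promoting complex, at 12.9 ± 0.791 and 18.4 ± 0.606 CPM (0.51). These 2 lay in opposite directions, and 29.6% of the counts of Cdc20 and its pseudogene were on the pseudogene.

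Relatives of the 10 genes did not pass the test either. Of 16 paralogs and partners, 10 were tested and 0 passed. Btg1, the paralog of Btg2, stood at 286 ± 18.2 and 307 ± 16.3 CPM, and Rrm1, the large subunit that pairs with Rrm2b, at 268 ± 16.6 and 238 ± 23.3 CPM. Sesn2, the paralog of Sesn1, had 10, 10 and 15 counts under I/R against 6, 4 and 6 under I/R + Dex. Its groups were apart, as in 9.12% of all genes tested, but on few counts. It did not reach the filter and was not tested. Ccng2, the paralog of Ccng1, had 4, 11 and 5 counts under I/R against 8, 2 and 0 under I/R + Dex, and was not tested.

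**Figure D4:**
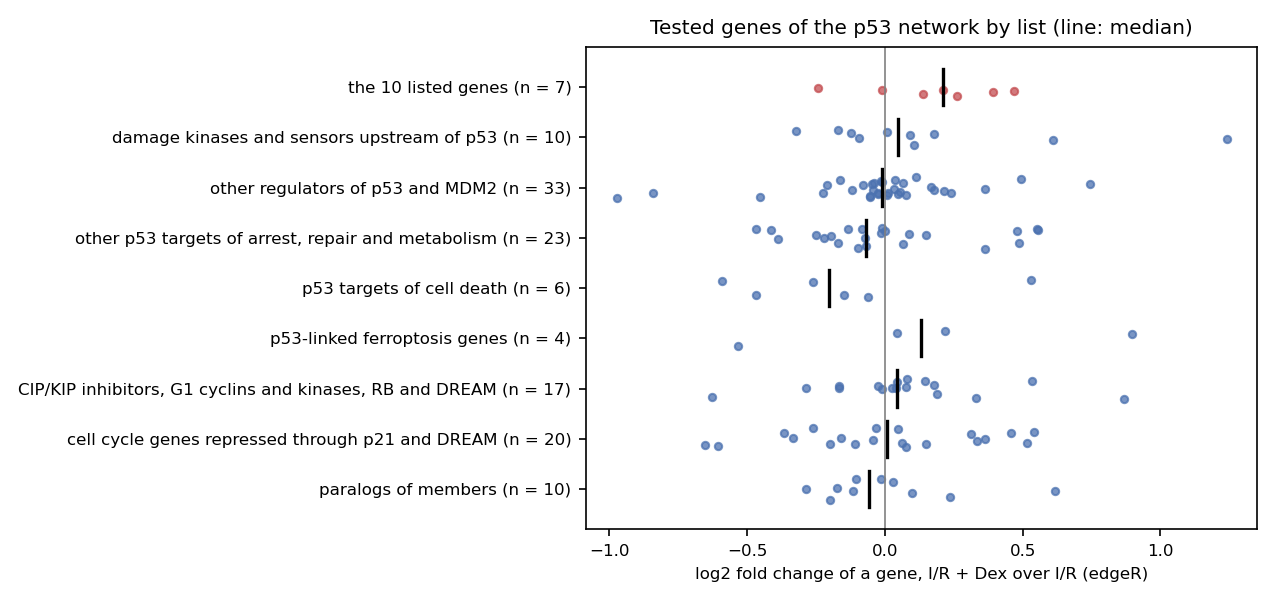
Log2 fold change, I/R + Dex relative to I/R (horizontal axis, edgeR) of each tested gene, by list, with the number of genes tested beside the list name and a line at the median. Red points are the 10 described genes, of which 7 were tested. The list medians lie between -0.20 and 0.21, and no gene passed the test.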

How the data were processed

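Poly(A)+ RNA of 6 MLE-12 libraries was analysed, grouped by their labels, which call them biological replicates. The authors deposited whole-number counts per gene and transcript and FPKM per gene, and their table gives a log2 fold change, a p-value and coordinates per transcript. The submitters' processing notes name GRCm39, DESeq2 1.30, StringTie 2.2.4 and HISAT2 2.1.0. Their roles, the annotation, strandedness and the handling of multiply matching reads are not stated there.

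Genes and transcripts were tested over the whole table with edgeR 4.0.16 (R 4.3.3; filterByExpr, TMM, robust quasi-likelihood, Benjamini-Hochberg, threshold 0.05), and checked on simulated data. CPM of genes are TMM-scaled, CPM of transcripts are scaled to the library total alone, and adjusted p-values printed as 1.00 are rounded. Alternatives used other scaling, filters, DESeq2 1.42.0, limma 3.58.1 on counts or on log2(FPKM + 1) and log2(FPKM + 0.1), a replicate block, a required log2 fold change of 1 in size, omission of each library, and copies found with blastn 2.17.0. Copies shared 90% identity along 200 or more bases and covered 50% of the gene's transcript, or, for a pseudogene, 50% of its own and 20% of the gene's.

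The rule that lists the 10 genes uses no measured value, but the genes, lists and tests were chosen with earlier results of these data known. All 10 genes are named, with the 2 lowest p of each list, and Slc7a11, Sat1, Sesn2, Btg1 and Ccng2 in any case. A gene that this rule names is not reported here. Intervals of shares and floors cover counting error only.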

Additional observations from a re-analysis of the deposited data

How the results depend on the processing

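Under every alternative run, 0 of the 10 genes, 0 of the 200 network genes and 0 of the tested transcripts of the 10 genes passed the test, also when each library was left out. The count over all genes, 5 with edgeR, was 14 with DESeq2, 1 with limma voom, 8 with limma on log2(FPKM + 1) and 3 on log2(FPKM + 0.1) (both with a mean FPKM of 1 or more), and 0 to 4 with a library left out. The count over all transcripts, 0 with edgeR, was 12 without a filter, 74 with DESeq2 and 0 to 3 with a library left out. Why these counts moved was not tested. The log2 fold changes of Btg2, Ccng1, Trp53inp1 and Zmat3 stayed above 0 under the alternatives run, from 0.07 for Trp53inp1 to 0.82 for Btg2. Trp53 changed sign under 4 alternatives, within -0.12 to 0.04, and Mdm2 and Mdm4 under 2 each, as given above. The median over all genes was -0.01, -0.0042 and -0.01 with TMM, DESeq2 and upper-quartile scaling.

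The labels do not say that a replicate number pairs libraries. Same-numbered libraries correlated in their deviations from group means by 0.0234, -0.00961 and -0.00415, and not every library correlated best with its own number. Correlations this near 0 show no pairing and cannot exclude one. With the replicate number as a block, 0 genes passed over all genes tested.

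Depth and the spread between libraries both limit the values. Of the 10 genes, 3 had 10 to 24 counts over all libraries, replicates of a group differed by a chi-square per degree of freedom of 10.7 to 12.4 (near 1 under counting error alone), and the upper bounds of the 95% intervals of the other 7 lay between 0.56 and 1.85 on the log2 scale. Counts of transcripts depend on an assignment of reads that the sources used here do not describe.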
